A study of Mus musculus with 36 samples.

Results

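The 10 genes described here encode scaffolds and priming factors of the presynaptic active zone, and they were taken by name from the 16614 rows of the deposited count table. They are Bsn and Pclo (bassoon and piccolo, the giant scaffolds), Rims1 and Rims2 (RIM proteins, which bind vesicles and calcium channels), Unc13a and Unc13b (Munc13 proteins, which prime vesicles for fusion), Erc1 and Erc2 (ELKS/CAST coiled-coil proteins), and Ppfia2 and Ppfia3 (liprin-alpha proteins, which organize the scaffold). All 10 were found and all 10 passed the filter on low counts in every comparison. Of the 278002 peaks of ribosome footprints deposited for 12 of the libraries, 935 lay on transcripts of these genes.

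The active zone is the patch of presynaptic membrane where synaptic vesicles dock and fuse. Its proteins bind one another in a dense meshwork that holds primed vesicles close to calcium channels. Several of their mRNAs have very long coding sequences, so many ribosomes can sit on a single message. FMRP, the protein lost in the FMR1 KO, binds ribosomes and many neuronal mRNAs, among them mRNAs of presynaptic proteins.

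Ribosome-protected fragments (RPFs) were sequenced from the pellet of a sucrose gradient, which holds the ribosome clusters of RNA granules, and from fraction 5/6, which holds polysomes. RNA-seq was made from whole brain homogenate. The mice were WT (C57BL/6) or FMR1 KO, were taken at postnatal day 5, and their brains were pooled for each preparation. The standard preparation combined stronger nuclease digestion with MgCl2 at 10 mM. The low nuclease preparation was digested more mildly, in the cold, at 2.5 mM. Each of the 12 combinations of genotype, fraction and preparation had 3 libraries, 36 in all. The 12 RPF libraries of the standard preparation, their 6 RNA-seq libraries and the 12 RPF libraries of the low nuclease preparation entered the comparisons. In whole-brain material, fewer cells of a type and less RNA per cell cannot be told apart.

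Levels are library-scaled counts (CPM) after the row of Cdk8 was left out, since that gene took 36.672% to 63.435% of the counts of the standard RPF libraries. Without it the standard pellet libraries held 11922190 to 21274803 counts, those of fraction 5/6 held 4284209 to 16618125, and the RNA-seq libraries held 112240104 to 147207607. The 10 genes took 0.176% to 0.224% of the pellet counts and 0.198% to 0.242% of the RNA-seq counts. Fmr1 was at 64.6 to 67.8 CPM in WT pellets and 4.79 to 4.93 CPM in those of FMR1 KO. In WT fraction 5/6 it was at 100.07, 68.6 and 3.17 CPM, so the library labelled WT fraction 5/6 replicate 3 went against its label, and each edgeR comparison and peak difference that uses it is also given without it. The sum of 5 neuron markers was 4514 to 7086 CPM in the standard pellet, and those of the marker lists were 381 to 574.5 CPM for astrocytes, 233 to 369.7 CPM for the oligodendrocyte lineage, 78.4 to 117 CPM for microglia, 3.99 to 17.2 CPM for red cells and 1.80 to 4.87 CPM for endothelium.

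The loci are given on GRCm38. Bsn (ENSMUSG00000032589) lies at chr9:108096022-108190384 on the minus strand and Pclo (ENSMUSG00000061601) at chr5:14514918-14863459 on the plus strand, with longest coding sequences of 11.83 kb and 15.21 kb. Rims1 (ENSMUSG00000041670) lies at chr1:22286251-22805994 on the minus strand and Rims2 (ENSMUSG00000037386) at chr15:39198261-39684372 on the plus strand, with 4.28 kb and 4.72 kb. Unc13a (ENSMUSG00000034799) lies at chr8:71624417-71671757 on the minus strand and Unc13b (ENSMUSG00000028456) at chr4:43058953-43264871 on the plus strand, with 5.2 kb and 13.17 kb. For Unc13b the transcript named in the count table has only 4830 coding bases. Erc1 (ENSMUSG00000030172) lies at chr6:119570796-119848167 on the minus strand and Erc2 (ENSMUSG00000040640) at chr14:27622428-28478537 on the plus strand, with 3.36 kb and 3.01 kb. Ppfia2 (ENSMUSG00000053825) lies at chr10:106470339-106935952 on the plus strand and Ppfia3 (ENSMUSG00000003863) at chr7:45339122-45367019 on the minus strand, with 3.77 kb and 3.58 kb. Exons of Unc13a overlap those of Colgalt1 on the other strand, and exons of Pclo, Erc1, Erc2, Ppfia2 and Ppfia3 also overlap genes on the other strand. Whether the counting used strand is not given in the sources used here. Among the coding sequences of the 10 genes, only Unc13a and Unc13b shared stretches of 25 nt, 18 of them, which is 0.343% of those in Unc13a.

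The sequences under recurrent peaks show where footprints piled up on these mRNAs. A peak zenith was taken as the middle of a deposited interval, and it was called recurrent when each of the 3 libraries of a group had a zenith within 6 nt of it. There were 5 such sites in the WT pellet, all on Unc13a, and 5 in the FMR1 KO pellet, 3 on Ppfia2 and 2 on Unc13a. All 10 lay in coding sequence. Codons are numbered on the transcript that carried the peaks, ENSMUST00000030170 for Unc13a and ENSMUST00000217854 for Ppfia2. For Unc13a, Rims1 and Erc1 the transcript with peaks is not the one named in the count table. The windows below are 35 nt centred on the zenith, read 5′ to 3′ from GENCODE M21 transcripts on GRCm38, and AGGA or TGGA is in capitals. Whether the deposited positions count from 0 or from 1 is not stated, so a window may be off by 1 base. Sites in the WT pellet come first, then those in the FMR1 KO pellet.
Unc13a codon 764: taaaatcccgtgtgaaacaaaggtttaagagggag
Unc13a codon 956: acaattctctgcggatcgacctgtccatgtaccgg
Unc13a codon 1051: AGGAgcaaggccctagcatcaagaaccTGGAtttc
Unc13a codon 1551: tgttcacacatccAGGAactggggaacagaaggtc
Unc13a codon 1671: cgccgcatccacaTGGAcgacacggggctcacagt
Unc13a codon 635: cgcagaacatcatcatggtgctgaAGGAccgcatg
Unc13a codon 1071: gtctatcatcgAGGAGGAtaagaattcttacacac
Ppfia2 codon 234: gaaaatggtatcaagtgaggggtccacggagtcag
Ppfia2 codon 448: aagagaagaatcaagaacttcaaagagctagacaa
Ppfia2 codon 490: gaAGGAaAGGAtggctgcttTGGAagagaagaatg

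AGGA or TGGA, searched on the transcript strand, stood in 6 of these 10 windows (60.0%) and in 45.1% of the 149726 windows of all pellet peaks. With windows of 29 nt, a length added after the first result was seen, the shares were 60.0% and 39.0%, so the gap between them depends on the window length, and with 10 windows it is a description only.

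In the WT pellet, Unc13a had the highest level per coding length, and Unc13b the lowest. Per kb of merged coding sequence, Unc13a was at 122 ± 29.7 CPM (SD, n = 3), Erc1 at 76.4 ± 1.38, Erc2 at 51.1 ± 3.27, Ppfia2 at 50.7 ± 0.637 and Ppfia3 at 48.2 ± 1.45. Rims1 was at 28.1 ± 1.18, Pclo at 14.1 ± 3.77, Rims2 at 10.9 ± 1.70, Bsn at 8.44 ± 1.51 and Unc13b at 2.26 ± 0.0644. Neighbours in this order did not overlap, except Erc2 with Ppfia2, Pclo with Rims2 and Rims2 with Bsn. Unc13b is scaled here by 15.56 kb of merged coding sequence, while its transcript in the count table has 4830 coding bases. Its distance from Bsn depends on that choice of length, and with the shorter length the values of Unc13b and Bsn would overlap. In WT RNA-seq, per kb of merged exons, the order was different. Erc2 was highest at 30.0 ± 2.08 CPM per kb and overlapped with Rims1 at 28.6 ± 2.01, Unc13a stood in the middle at 18.6 ± 3.90, and Unc13b was again lowest at 2.27 ± 0.200. In the low nuclease WT pellet Erc1 led at 79.0 ± 6.39 CPM per kb and Unc13a was next at 62.6 ± 2.25.

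**Figure D1:**
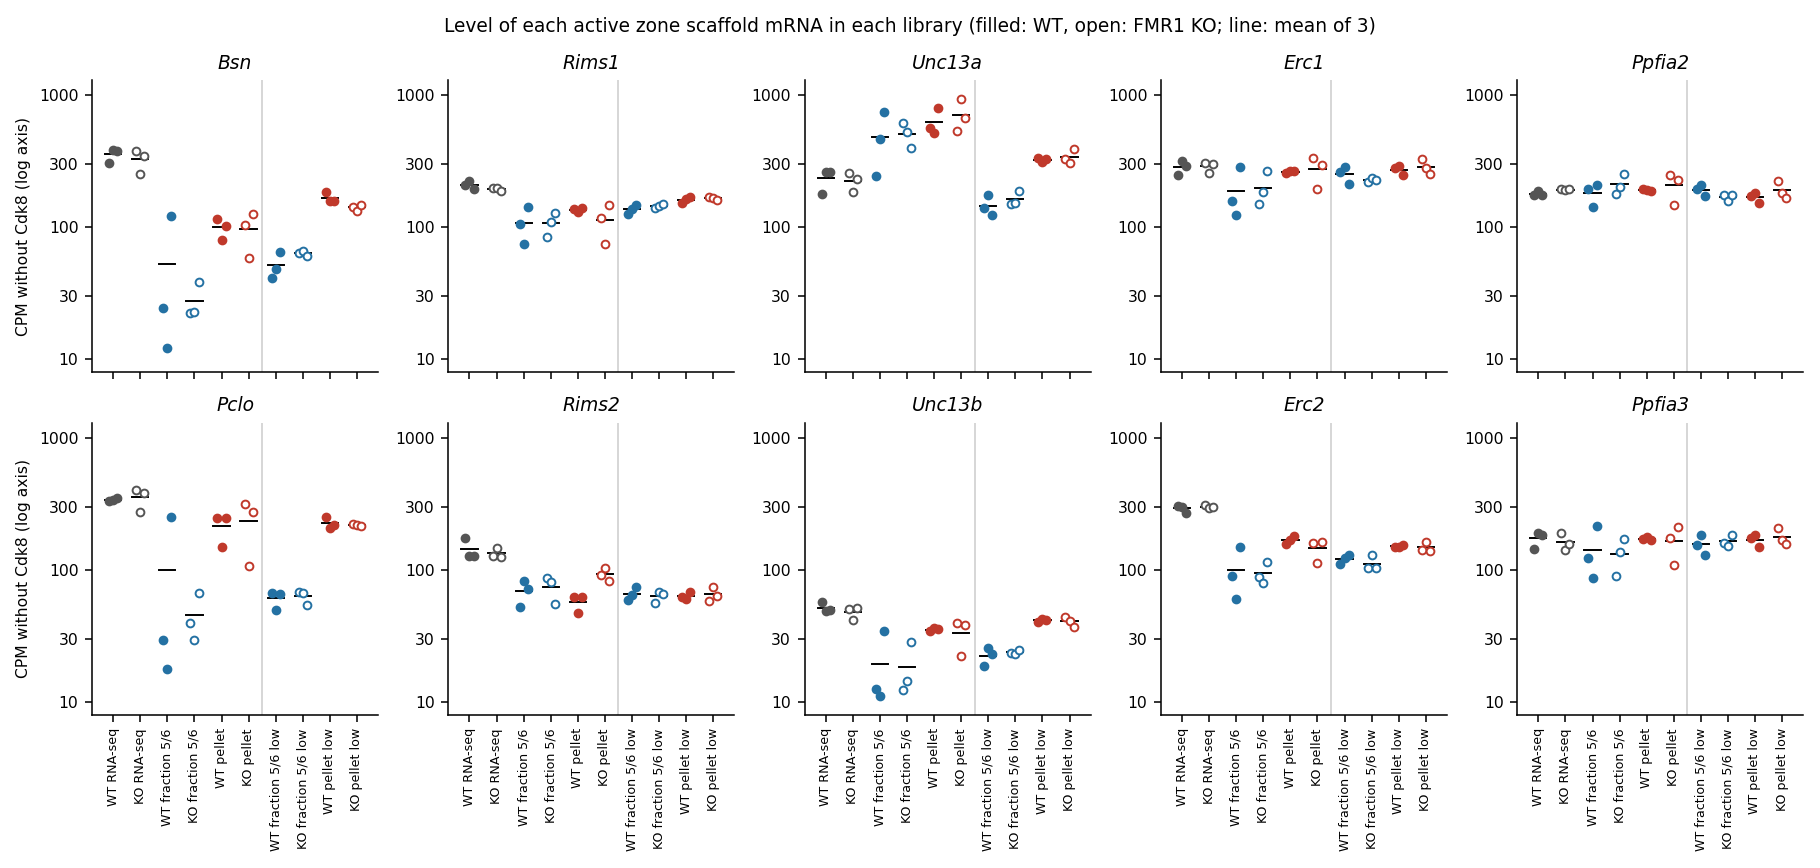
CPM without Cdk8 (log axis) of the 10 genes in each library, with 1 panel per gene and points for the 3 libraries of each group; the low nuclease RNA-seq is not drawn. For Bsn and Pclo the fraction 5/6 libraries lie below the pellet, except the library labelled WT fraction 5/6 replicate 3.

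Paralogs differed in footprints and in RNA. Erc1 exceeded Erc2 in footprints per kb in every footprint library, with group means of the log2 ratio of 0.58 to 0.99 (0.74, 0.98 and 0.85 in the WT fraction 5/6 libraries), while in the standard RNA-seq Erc2 exceeded Erc1 per kb, with -0.78 ± 0.23 (SD, n = 3) for WT and -0.80 ± 0.11 for FMR1 KO. As CPM the genes overlapped in WT standard RNA-seq, at 248, 318 and 290 for Erc1 and 307, 301 and 269 for Erc2. Their merged exons are 16.27 kb and 9.73 kb, so the order in RNA rests on these lengths. The low nuclease RNA-seq gave 0.19, 0.13 and -0.21 in WT and 0.41, -0.69 and -0.79 in FMR1 KO, so Erc2 did not exceed Erc1 in each of its libraries. The log2 ratio of Unc13a over Unc13b was 5.72 ± 0.33 in the WT pellet and 3.02 ± 0.45 in WT RNA-seq. In the low nuclease WT libraries it was 4.55 ± 0.09 and 3.78 ± 0.01. The footprint ratios rest on 15.56 kb of merged coding sequence for Unc13b, and would be lower with the 4830 coding bases of its count-table transcript. The log2 ratio of Bsn over Pclo was -0.72 ± 0.20 in the WT pellet and 0.56 ± 0.17 in WT RNA-seq. That of Ppfia2 over Ppfia3 was 0.07 ± 0.04 and -0.40 ± 0.20. Rims1 over Rims2 was 1.38 ± 0.18 in WT pellets, and the 3 FMR1 KO pellets gave 0.49, -0.34 and 0.95. Footprints and RNA are scaled to different lengths, so the shift of a ratio between them also depends on those lengths, and these ratios were not tested.

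The occupancy comparison asks how pellet RPFs of an mRNA stand against its RNA. Of the 10 genes, 6 were higher and 1 lower in WT, where 65.3% of all genes tested passed in either direction, 31.1% higher and 34.2% lower (edgeR's quasi-likelihood test, Benjamini-Hochberg adjusted p under 0.05). In FMR1 KO 6 were higher and 1 lower, against 66.8% in either direction, 31.6% higher and 35.1% lower. The Munc13 genes were both higher. Unc13a was at 568, 519.9 and 808 CPM in the WT pellet and at 178, 264 and 263 CPM in WT RNA-seq, and the 2 groups did not overlap. Its log2 fold change was 2.60 (SE 0.27, adjusted p = 0.00012 by edgeR) in WT and 2.86 (SE 0.37) in FMR1 KO. Unc13b rose by 0.60 (SE 0.12) and 0.56 (SE 0.12) on this scale, although its CPM was lower in the WT pellet (34.1, 36.0 and 35.6) than in WT RNA-seq (57.0, 49.0 and 49.2).

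Both liprins rose in both genotypes. Ppfia2 rose 2.37-fold in WT and 2.28-fold in FMR1 KO, and Ppfia3 rose 2.22-fold and 2.14-fold (SE 0.11 to 0.15 on the log2 scale). Erc1 rose by 1.05 (SE 0.14) and 1.01 (SE 0.13), and Erc2 had 0.36 (adjusted p = 0.0516 by edgeR) and 0.04. Rims1 rose in WT by 0.53 (SE 0.14) and had 0.29 (adjusted p = 0.0912 by edgeR) in FMR1 KO, while Rims2 had -0.15 in WT and 0.63 (adjusted p = 0.0491 by edgeR) in FMR1 KO. Bsn was the only gene of the 10 that fell, by 0.67 (SE 0.20) in WT and by 0.70 (SE 0.19) in FMR1 KO, and Pclo had 0.52 and 0.43 and did not pass in either. The call of Rims2 in FMR1 KO was lost without any 1 RNA-seq library (adjusted p = 0.0604 to 0.123 by edgeR) and without pellet replicate 1 (0.0612) or 2 (0.065, with a log2 fold change of 0.32). That of Bsn was lost in WT without RNA-seq replicate 2 (0.0657) or 3 (0.0511) and in FMR1 KO without RNA-seq replicate 1 (0.053). In a fit over all 12 groups 5 genes were higher and none was lower in each genotype, where 25.0% of all genes were higher and 32.1% lower in WT and 26.5% and 31.0% in FMR1 KO, and the calls lost by edgeR were those of Bsn (adjusted p = 0.104 in WT and 0.111 in FMR1 KO), Unc13b in WT (0.0534) and Rims2 in FMR1 KO (0.102), the last also without the filter on low counts (0.0541). These directions are relative to the TMM scaling. With library size alone the median of all genes moved from -0.10 to -1.26 in WT and from -0.07 to -1.17 in FMR1 KO, and the 10 genes then gave 1 higher and 6 lower in WT, where 8.73% of all genes were higher and 67.6% lower. In FMR1 KO they gave 1 higher and 4 lower, where 7.93% were higher and 62.0% lower.

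**Figure D2:**
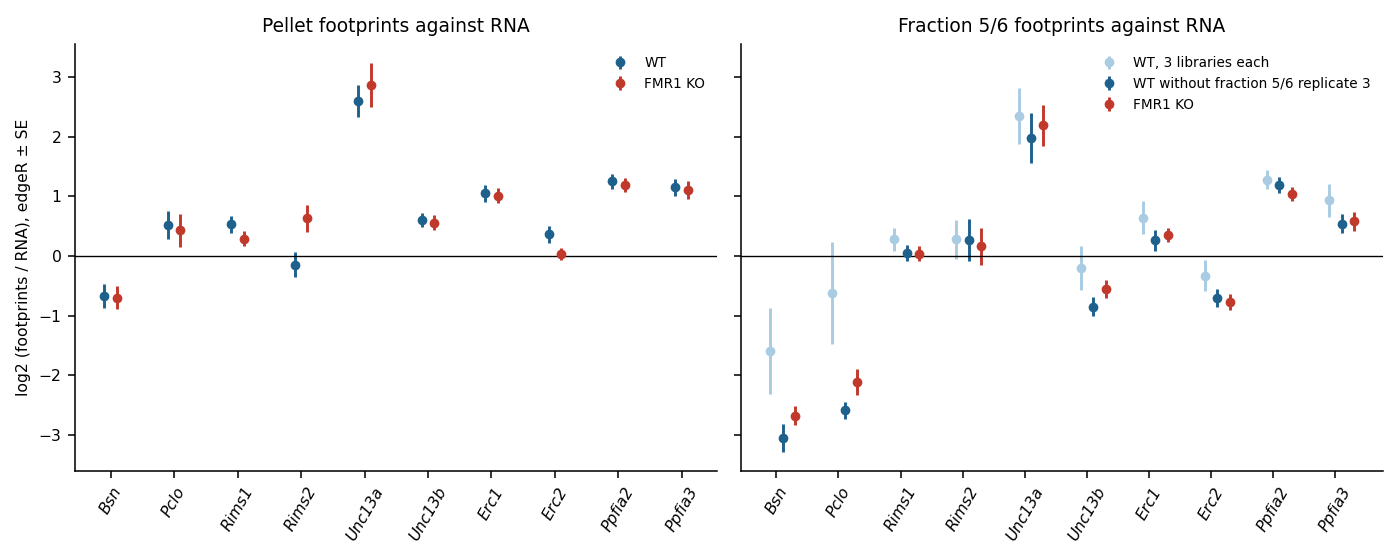
Log2 fold change of footprints over RNA (edgeR, bars are SE) for the pellet and for fraction 5/6, by genotype, with WT fraction 5/6 also shown without replicate 3. Unc13a is highest in both panels, and Bsn and Pclo are lower in fraction 5/6 than in the pellet in FMR1 KO and in WT without replicate 3.

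In fraction 5/6 against RNA, the giant scaffolds fell in FMR1 KO, and did not pass in WT with all libraries. In FMR1 KO 4 of the 10 genes were higher and 4 lower, where 62.8% of all genes passed, 29.7% higher and 33.1% lower. Bsn fell by 2.68 (SE 0.16) and Pclo by 2.11 (SE 0.22), with Erc2 down by 0.77 (SE 0.13) and Unc13b by 0.55 (SE 0.15). Unc13a rose by 2.19 (SE 0.34), Ppfia2 by 1.04 (SE 0.12), Ppfia3 by 0.58 (SE 0.16) and Erc1 by 0.35 (SE 0.12). In WT 3 were higher and none was lower, where 55.9% of all genes passed and 28.3% were higher: Unc13a with 2.35, Ppfia2 with 1.28 and Ppfia3 with 0.93. Bsn had -1.60 (SE 0.72, adjusted p = 0.0994 by edgeR) and Pclo -0.62 (SE 0.86, adjusted p = 0.565 by edgeR) there. When the library labelled WT fraction 5/6 replicate 3 was left out, 3 were higher and 4 lower, where 59.9% of all genes passed, 27.9% higher and 32.0% lower, with Bsn at -3.05, Pclo at -2.59, Unc13b at -0.85 and Erc2 at -0.71. With library size alone the counts were 0 higher and 5 lower in WT, where 5.72% of all genes were higher and 59.3% lower, and 1 higher and 6 lower in FMR1 KO, where 8.04% were higher and 55.3% lower. In the fit over all 12 groups 2 were higher and 4 lower in FMR1 KO, where 3777 of the 16473 genes tested were higher and 4779 lower, and the calls of Ppfia3 (adjusted p = 0.0859 by edgeR) and Erc1 (0.325) were lost. In FMR1 KO the call of Erc1 was lost without fraction 5/6 replicate 2 or 3 or any 1 RNA-seq library (adjusted p = 0.0585 to 0.0852 by edgeR), and that of Unc13b without RNA-seq replicate 1 or 3. In WT that of Ppfia3 was lost without RNA-seq replicate 1 or 3. This comparison shares the RNA-seq libraries with occupancy.

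Enrichment compares the pellet with fraction 5/6. In FMR1 KO 5 of the 10 genes were higher in the pellet and none was lower, where 11.5% of all genes passed and 10.1% were higher. Bsn was at 105, 58.4 and 126 CPM in the FMR1 KO pellet and at 22.4, 23.0 and 38.3 CPM in fraction 5/6. Pclo was at 315, 107 and 276 CPM in the pellet and at 39.5, 29.3 and 66.3 CPM in fraction 5/6. For both scaffolds every pellet library lay above every fraction 5/6 library. Bsn rose 4.38-fold (log2 2.13, SE 0.16, adjusted p = 0.00116 by edgeR) and Pclo 6.51-fold (log2 2.7, SE 0.32, adjusted p = 0.00401 by edgeR). Unc13b had 1.27 (SE 0.17), Erc2 0.97 (SE 0.13) and Erc1 0.82 (SE 0.15). The call of Erc1 was lost without replicate 1 or 3 of either fraction (adjusted p = 0.063 to 0.0969 by edgeR). These pellet libraries also enter occupancy.

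Not passing in FMR1 KO were Unc13a with 0.83 (SE 0.47), Ppfia3 with 0.67 (SE 0.18), Rims2 with 0.63 (SE 0.38), Rims1 with 0.40 (SE 0.16) and Ppfia2 with 0.31 (SE 0.15). With library size alone the median of all genes moved to -0.33, and 2 of the 10 were higher, where 1.06% of all genes were.

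In WT none of the 10 passed (edgeR; 0.023% of all genes did). At an unadjusted p under 0.05 there was 1, Erc2, where 6.26% of all genes had one. DESeq2 gave 0 at an adjusted p and 2 at an unadjusted p under 0.05, where 7.1% of all genes had one. Bsn was at 116, 80.7 and 103 CPM in the WT pellet and at 24.6, 12.2 and 122 CPM in fraction 5/6. Pclo was at 248, 149 and 248 CPM in the pellet and at 29.6, 17.8 and 251 CPM in fraction 5/6. In both genes the third fraction 5/6 library alone was at the level of the pellet. Without that library 6 genes were higher, where 9.58% of all genes passed and 7.77% were higher: Pclo with 3.17 (SE 0.36), Bsn with 2.45 (SE 0.27), Unc13b with 1.5, Erc2 with 1.13, Erc1 with 0.84 and Ppfia3 with 0.66. That fit leaves 2 libraries of WT fraction 5/6.

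The low nuclease preparation gave a separate set of libraries. In WT 5 of the 10 genes were higher in the pellet, where 23.0% of all genes passed and 14.3% were higher. In FMR1 KO 6 were higher, where 19.9% passed and 9.28% were higher. Bsn was at 184, 157 and 157 CPM in the WT pellet and at 41.4, 48.2 and 64.8 CPM in fraction 5/6. Pclo was at 253, 207 and 219 CPM and at 66.9, 49.9 and 65.4 CPM. Neither gene overlapped between the fractions. Their log2 fold changes were 1.81 (SE 0.15) for Bsn and 2.00 (SE 0.15) for Pclo in WT, and 1.35 (SE 0.10) and 1.97 (SE 0.13) in FMR1 KO. The astrocyte markers were also apart in WT, at 1531, 1142 and 1416 CPM in the pellet and 505, 519.5 and 586 CPM in fraction 5/6. In FMR1 KO these markers overlapped, at 493.5, 1521 and 707 against 411, 628 and 630 CPM. The neuron markers overlapped between the fractions in both genotypes.

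Unc13a passed in the low nuclease preparation with 1.26 (SE 0.17) in WT and 1.25 (SE 0.16) in FMR1 KO. It was at 334, 312 and 329.7 CPM in the WT pellet and at 139.7, 175 and 124 CPM in fraction 5/6. Unc13b had 1.01 (SE 0.13) and 0.97 (SE 0.12), and Erc2 0.43 (SE 0.10) and 0.60 (SE 0.11). Rims1 passed in FMR1 KO with 0.38 (SE 0.09) and had 0.36 (adjusted p = 0.0721 by edgeR) in WT. The calls of Rims1 in FMR1 KO and of Erc2 in WT were lost without any 1 library (adjusted p = 0.0669 to 0.115 and 0.0613 to 0.104 by edgeR), and that of Erc2 in FMR1 KO without any but pellet replicate 3. Those of Unc13a and Unc13b in FMR1 KO were lost without fraction 5/6 replicate 1 (0.0511) and replicate 3 (0.0504). Erc1, Rims2, Ppfia2 and Ppfia3 did not pass in either genotype, and lay between -0.07 and 0.53.

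**Figure D3:**
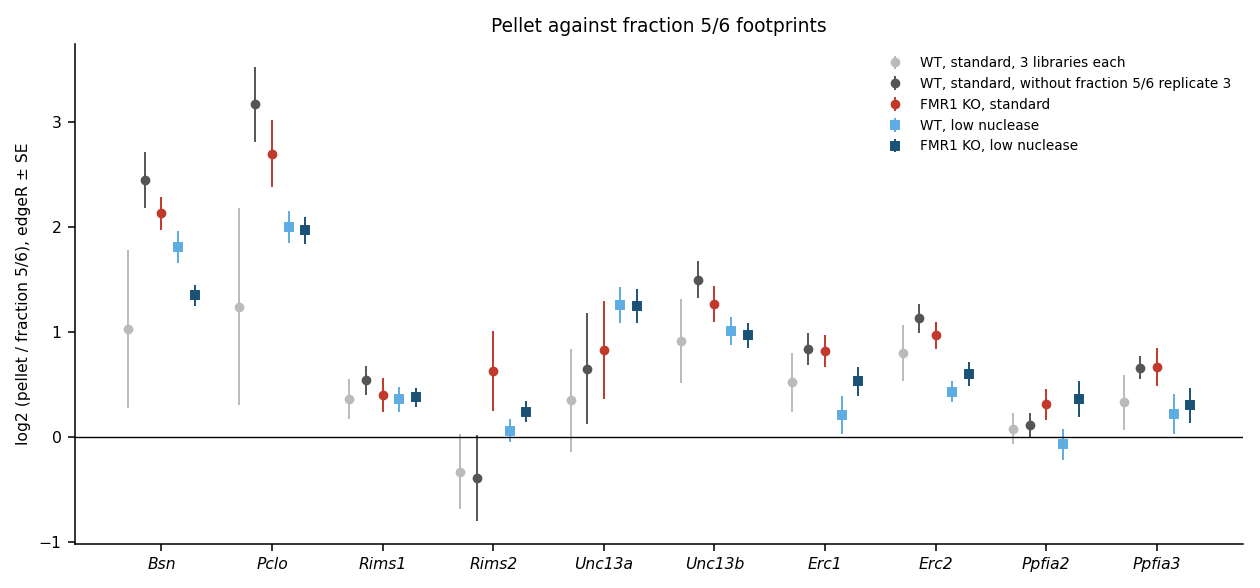
Log2 fold change of pellet over fraction 5/6 (edgeR, bars are SE) for the 10 genes in each genotype and preparation, with standard WT also shown without fraction 5/6 replicate 3. Bsn and Pclo are at 1.35 or more in every fit but the WT fit with all 3 libraries, where their SEs are 0.75 and 0.94.

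Enrichment rose with coding length over all genes. In FMR1 KO of the standard preparation, the median log2 fold change was -0.13 for 8937 genes with coding sequences under 2 kb and 0.39 for 3652 genes of 2 to 5 kb. It was 1.18 for 562 genes of 5 to 10 kb and 1.56 for 97 genes of 10 kb or more, of which 59.8% were higher in the pellet. Bsn, at 2.13, lay inside the quartiles of its length class (0.90 to 2.33), and Pclo, at 2.7, lay above them. Pclo was also above the upper quartile of 1.86 in low nuclease WT and of 1.70 in low nuclease FMR1 KO. Unc13b lay inside the quartiles of the longest class in all 3, although the transcript in the count table would place it in the class of 2 to 5 kb. Erc1 and Erc2, with shorter coding sequences, lay above the upper quartile of 0.79 of their class in standard FMR1 KO and inside the quartiles in both low nuclease fits. The part of length in the enrichment of these genes was not tested.

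**Figure D4:**
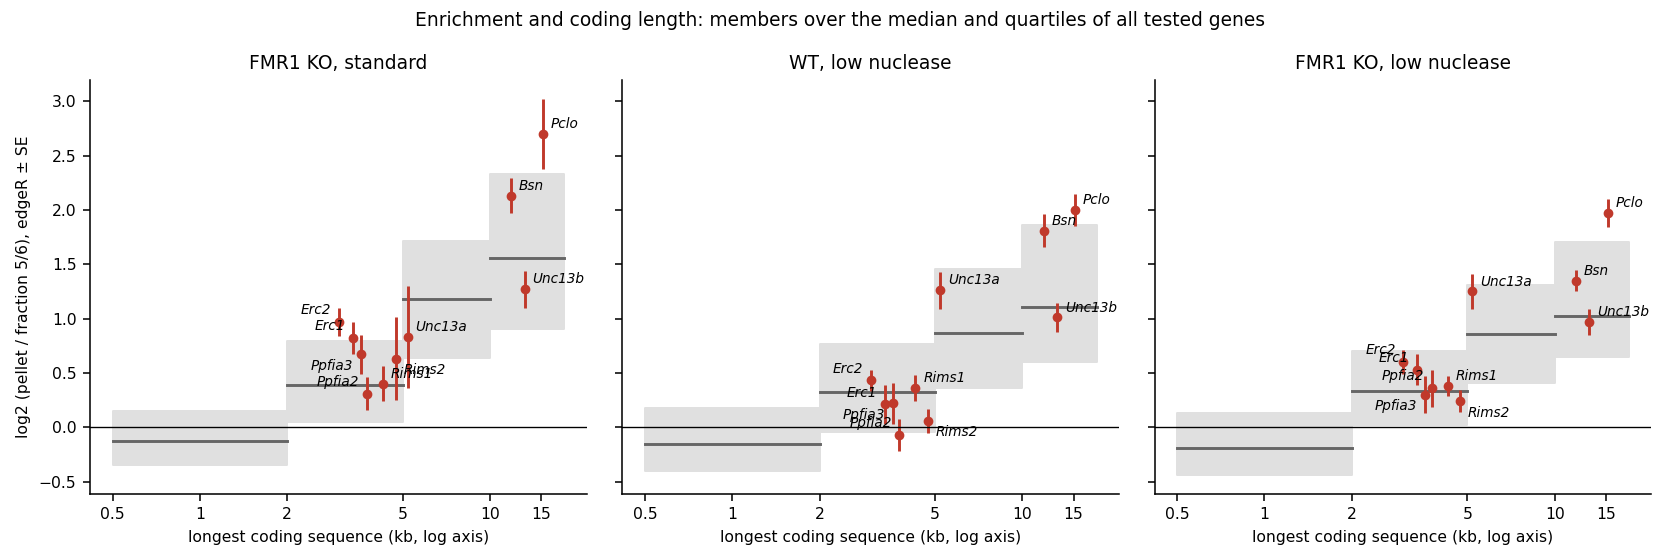
Log2 fold change of pellet over fraction 5/6 against the longest coding sequence in kb (log axis; the class under 2 kb is drawn from 0.5 kb), with red points and SE bars for the 10 genes and a grey line and box for the median and quartiles of all genes of a length class. Pclo lies above the box in all 3 panels, and Bsn inside it.

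For the genotypes, none of the 10 genes passed in any of 7 comparisons by edgeR, and none by DESeq2. The share of all genes that passed was 0.0153% in the standard pellet, 0.0% in fraction 5/6, 0.0739% in RNA-seq, 0.0673% in occupancy, 0.0% in enrichment, 0.0198% in the low nuclease pellet and 0.0447% in low nuclease fraction 5/6. With the library labelled WT fraction 5/6 replicate 3 left out, none of the 10 passed either, and 0.0307% of all genes did in fraction 5/6 and 0.0% in enrichment. The log2 fold changes of FMR1 KO over WT lay between -0.27 and 0.76 in the standard pellet, -0.10 and 0.13 in RNA-seq, and -0.12 and 0.27 in the low nuclease pellet. They were between -0.28 and 0.82 in occupancy and between -0.20 and 0.30 in low nuclease fraction 5/6. In standard fraction 5/6 all 10 were below 0, from -1.36 (SE 0.89) for Pclo to -0.08 for Ppfia2. With the library labelled WT fraction 5/6 replicate 3 left out they lay from -0.26 for Rims2 to 0.52 for Pclo. In enrichment they lay from 0.01 for Rims1 to 1.41 (SE 1.06) for Pclo, and without that library from -0.48 for Pclo to 1.01 for Rims2. Rims2, a RIM protein, was the only gene of the 10 with an unadjusted p under 0.05 by edgeR, in the standard pellet, where 5.35% of all genes had one, and in occupancy, where 6.12% did. By DESeq2 1 and 2 genes had one there, beside 4.61% and 6.45% of all genes, and 0 in the other 5 comparisons. So 1 of 10 is near the share of all genes, and Rims2 is described for its values only. Its WT pellet libraries were at 62.4, 46.9 and 62.2 CPM and those of FMR1 KO at 91.3, 102.4 and 82.8 CPM, so the groups did not overlap. The log2 fold change was 0.76 (SE 0.28, adjusted p = 0.862 by edgeR). In the low nuclease pellet Rims2 was at 61.7, 60.4 and 68.0 CPM in WT and at 57.9, 74.5 and 63.8 CPM in FMR1 KO, which overlapped, with a log2 fold change of 0.14 (SE 0.10). For Unc13a the standard pellet gave 0.28 (SE 0.41), for Bsn -0.08 (SE 0.22) and for Pclo 0.05 (SE 0.35), so the spread between libraries leaves wide limits.

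The pellets of the 2 preparations also differed. In WT 5 of the 10 genes were higher in the standard than in the low nuclease pellet, where 39.1% of all genes passed and 15.0% were higher: Unc13a with 1.5 (SE 0.23), Ppfia2 with 0.70, Erc2 with 0.69, Ppfia3 with 0.55 and Erc1 with 0.48. In FMR1 KO 3 were higher, where 16.9% passed and 7.39% were higher: Unc13a with 1.66 (SE 0.38), Rims2 with 1.07 (SE 0.25) and Erc2 with 0.48 (SE 0.11). None of the 3 calls in FMR1 KO held with the replicate number as a block (0 of the 10, and 779 of all 14452 genes). The same held without standard pellet replicate 1 (488 of all 15137 genes passed) or low nuclease replicate 2 (595 of 14164) or 3 (584 of 14170). Without standard replicate 3, 1 gene passed (1071 of all 15140 genes), and 5 did without low nuclease replicate 1 (4507 of 14368). In WT, Unc13a was at 519.9 to 808 CPM in the standard pellet and at 312 to 334 CPM in the low nuclease pellet. With library size alone the median of all genes moved from -0.04 to -0.57 in WT and from -0.02 to -0.52 in FMR1 KO, and 1 gene was higher and 1 lower in WT, where 2.02% of all genes were higher and 49.4% lower, and 1 higher in FMR1 KO, where 2.03% were higher. Marker lists differed between these pellets as well. In WT the astrocyte markers were at 434, 574.5 and 546 CPM in the standard pellet. In the low nuclease WT pellet they were at 1531, 1142 and 1416 CPM. The other non-neuron lists were also lower in every standard WT pellet library. In FMR1 KO the astrocyte markers overlapped, at 448, 381 and 574 against 493.5, 1521 and 707 CPM. The neuron markers overlapped in both genotypes. The part of cell types was not tested. Nuclease, MgCl2 and digestion conditions changed together between the preparations and cannot be told apart.

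The partners of these scaffolds were a list of 35 genes, among them calcium channels, receptor phosphatases that bind liprins, and SNARE proteins. In occupancy 9 of the 35 were higher and 13 lower in WT, and 9 higher and 16 lower in FMR1 KO, beside the shares of all genes given above (31.1% and 34.2%, and 31.6% and 35.1%). Mycbp2, a large ubiquitin ligase of presynaptic terminals, was at 1.99 in WT and 1.81 in FMR1 KO, Rims3, a short RIM protein, at -2.17 and -2.10, and Cplx2, a complexin, at -1.83 and -2.09. Ppfibp1 had 1.79 in WT, and Unc13c had 2.07 in FMR1 KO. In enrichment 0 of the 35 passed in standard WT, and 1, Mycbp2, did when the library labelled WT fraction 5/6 replicate 3 was left out. In standard FMR1 KO 3 of the 35 were higher, where 10.1% of all genes were: Mycbp2 with 3.54 (SE 0.22) and the receptor phosphatases Ptprf with 1.28 (SE 0.17) and Ptprs with 0.83 (SE 0.19). The median log2 fold change there was 0.82 for the 10 scaffolds, -0.03 for the partners and 0.01 for all genes. In the low nuclease preparation 9 partners were higher and 2 lower in WT, where 14.3% of all genes were higher and 1346 of 15499 were lower. In FMR1 KO 4 were higher and 3 lower, where 9.28% of all genes were higher and 1653 of 15493 were lower. Mycbp2 was at 2.65 and 2.51 there. In WT Ptprf had 1.83, and the calcium channel subunits Cacna1b and Cacna1a had 1.52 and 1.34. In FMR1 KO Ppfibp1 had 1.2, Unc13c 0.89 and Lin7b -0.72. Between the genotypes none of the 35 passed in any comparison by edgeR, with or without the library labelled WT fraction 5/6 replicate 3.

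Peaks were called by the authors in each library of the standard preparation. They lay on 8 of the 10 genes, with none on Rims2 or Unc13b, and 98.4% of the 935 were in coding sequence, 15 in the 5′ UTR and 0 in the 3′ UTR. Ppfia2 had 322, Unc13a 279, Bsn 174, Ppfia3 55, Erc1 51, Erc2 35, Pclo 16 and Rims1 3. The WT pellet libraries had 183, 81 and 101 peaks on these genes, those of the FMR1 KO pellet 172, 33 and 144, those of WT fraction 5/6 49, 6 and 94, and those of FMR1 KO fraction 5/6 22, 45 and 5. The means of the pellets differed by -5.33 between FMR1 KO and WT (exact two-sided permutation test, p = 0.9), and 3 libraries against 3 allow no p below 0.1. Pellet and fraction 5/6 differed by 72.0 peaks in WT and by 92.3 in FMR1 KO (exact two-sided permutation test, p = 0.2 in each). All libraries had 11389 to 36435 peaks in total, and as shares of them the means were 0.427% in the FMR1 KO pellet against 0.432% in WT (exact two-sided permutation test, p = 1.0). In fraction 5/6 the shares were 0.118% in FMR1 KO and 0.204% in WT (exact two-sided permutation test against the pellet, p = 0.2 in each). The WT share in fraction 5/6 was 0.105% when the library labelled replicate 3 was left out (exact two-sided permutation test against the pellet, p = 0.2), and that of the FMR1 KO pellet was 0.552% without replicate 2. In that WT test 3 libraries stood against 2, which allow no lower p. The WT pellet shares were 0.502%, 0.329% and 0.465%, all above the 0.163% and 0.048% left in fraction 5/6. The difference in peaks in WT was 94.2 when the library labelled WT fraction 5/6 replicate 3 was left out. Without FMR1 KO pellet replicate 2, the library with 33 peaks, the differences were 36.3 between the genotypes and 134.0 in FMR1 KO.

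Peaks are set here beside the counts of the gene in the same library, without a test. Bsn had 66, 4 and 19 peaks in the WT pellet at 2472, 987 and 1224 counts, and 35, 2 and 29 in the FMR1 KO pellet at 1613, 732 and 1570 counts. In fraction 5/6 it had 0 peaks in 5 libraries with 107 to 409 counts and 19 in the library labelled WT fraction 5/6 replicate 3 with 1498. Pclo had peaks in 3 pellet libraries only, 10, 5 and 1. Ppfia2 had 13 to 46 peaks in the pellet at 1858 to 4119 counts and 4 to 38 in fraction 5/6 at 1088 to 3261 counts, so its fractions overlapped in both. Unc13a had 28, 43 and 48 peaks in WT pellets at 12073, 6357 and 9636 counts, and 47, 16 and 53 in those of FMR1 KO at 8204, 11689 and 8385 counts. In fraction 5/6 Unc13a had 2 and 0 peaks at 4068 and 4088 counts in WT, and 0, 4 and 0 at 5966, 6934 and 1695 counts in FMR1 KO, while WT replicate 3 had 38 at 9224 counts.

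**Figure D5:**
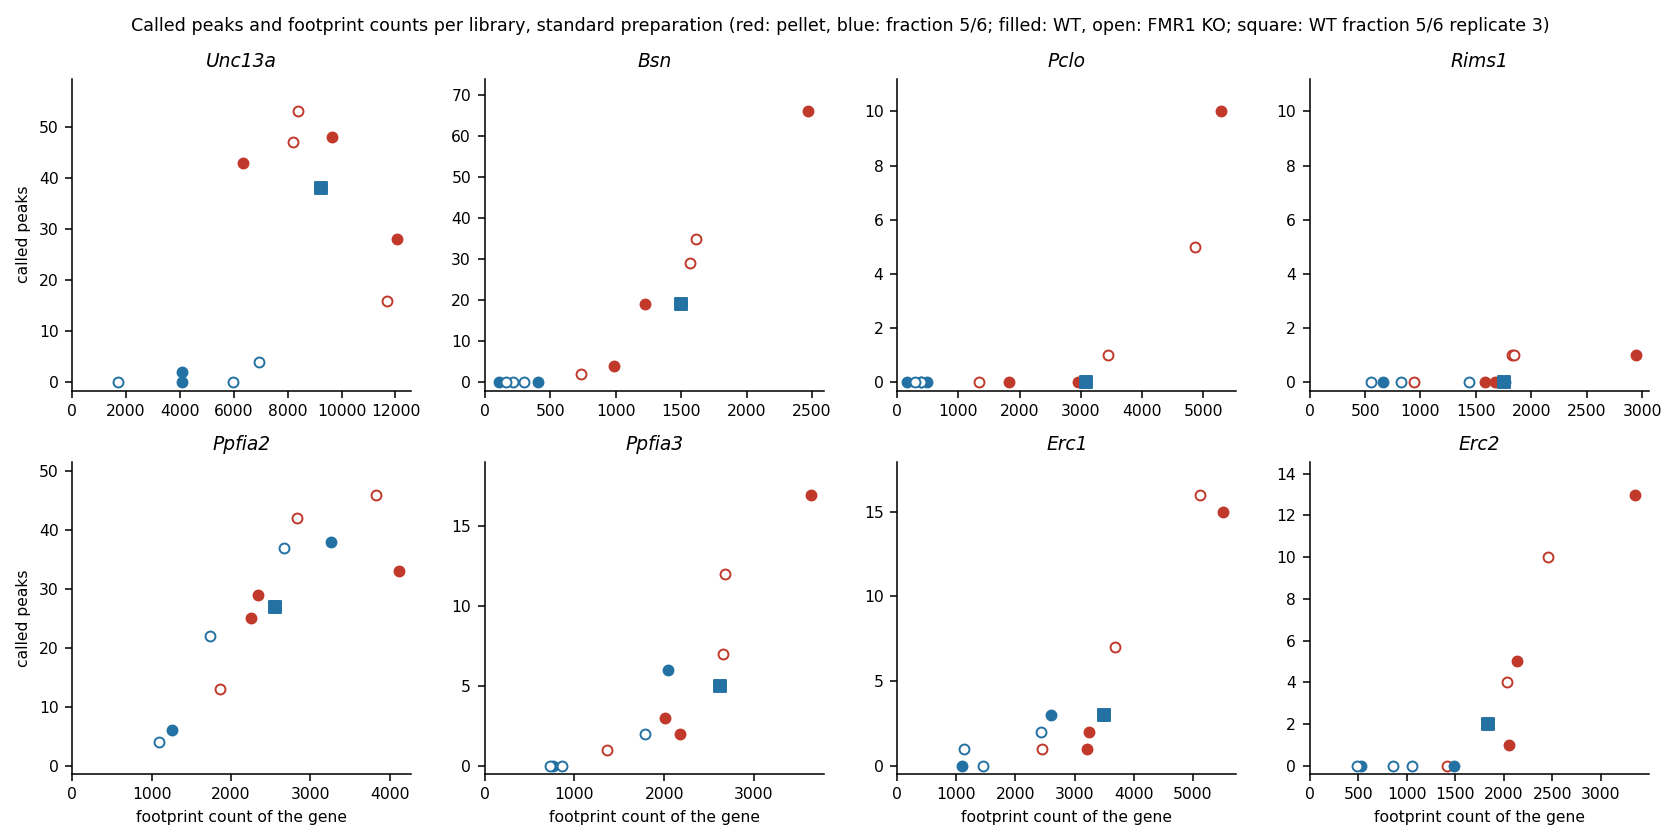
Number of called peaks against the footprint count of the gene for the 8 genes with peaks, with 1 point per standard library (red for pellet, blue for fraction 5/6, filled for WT, open for FMR1 KO, a square for WT fraction 5/6 replicate 3). For Unc13a the fraction 5/6 libraries other than the square have at most 4 peaks, and the pellet libraries have 16 to 53.

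Of the recurrent sites printed above, that at codon 1551 of Unc13a was the only one found when all 6 pellet libraries were matched together. There, a WT zenith at transcript position 4762 had zeniths within 6 nt in each of the 6 libraries. No FMR1 KO zenith there, at 4768, 4761 and 4758, had both others within 6 nt, so the site is not among the 5 of the FMR1 KO pellet. It had heights of 25, 11 and 15 in WT and 22, 12 and 23 in FMR1 KO, as called by the authors and not scaled between libraries, and a peak of height 21 in the library labelled WT fraction 5/6 replicate 3. At codon 1671 the WT pellet had heights of 32, 23 and 27 and FMR1 KO a peak of height 30 in 1 library, with a zenith of height 29 in another 7 nt away. At codon 764 they were 36, 16 and 20, with a height of 30 in 1 FMR1 KO library and a zenith of height 15 in another 10 nt away. At codon 490 of Ppfia2 the FMR1 KO pellet had heights of 27, 22 and 13 and the WT pellet had no peak within 6 nt. A WT pellet library had a zenith 7 nt away, and 2 libraries of WT fraction 5/6 had peaks within 6 nt, of heights 15 and 1. No site was recurrent in fraction 5/6 of either genotype. Only Ppfia2 had a peak in all 3 libraries of a fraction 5/6 group, so no other gene could have a recurrent site there. The WT group includes the library labelled WT fraction 5/6 replicate 3. These counts depend on the matching distance, and 12 nt gave 15 in the WT pellet, 14 in the FMR1 KO pellet and 3 in both.

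Across the 12 group means of CPM on a log2 scale, each gene was set beside all other genes past the low-count filter by Pearson's r. Each gene named as closest has the highest r of all genes outside the 10, so this is a description only. The closest were Ppp1r9a (neurabin, a neuronal protein that binds actin) for Pclo (0.984), Tnrc18 for Bsn (0.976), Mfn2 for Rims1 (0.985), Zfp72 for Rims2 (0.954), Ubr4 for Unc13a (0.946), Zfyve26 for Unc13b (0.984), Zmynd8 for Erc1 (0.967), Gli3 for Erc2 (0.972), Zfp952 for Ppfia2 (0.994) and Gigyf1 for Ppfia3 (0.951). Within the 10, Pclo and Unc13b had 0.892, Rims1 and Erc2 0.869, and Bsn and Pclo 0.854. Unc13a had at most 0.324 with any other of the 10. The group means share fractions, preparations and depth, and they include the low nuclease RNA-seq and the library labelled WT fraction 5/6 replicate 3.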

How the data were processed

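RPFs of the pellet and fraction 5/6 and RNA-seq were analysed. Per the labels and the study's methods, the authors trimmed reads with Cutadapt 2.10, removed ribosomal and non-coding RNA with Bowtie2 2.3.5, aligned to GRCm38 with STAR 2.7.8a, removed duplicates with Picard and SAMtools 1.19.2, and made the deposited counts with featureCounts 2.2.0. The peak heights, a signal deposited by the authors, were called per library on transcripts. Of 16614 rows, 26 of non-protein-coding genes and 92 without a symbol (at most 0.607% of counts) were left out, as was Cdk8. No column of values was left unmapped (0).

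Groups were compared with edgeR 4.0.16 in R 4.3.3 (filterByExpr, TMM, quasi-likelihood test, Benjamini-Hochberg over all genes tested, threshold 0.05), with DESeq2 1.42.0, library size alone and other settings as alternatives. Only the groups compared entered each fit, except in the fit over all 12 groups. Scripts were tested on simulated data. Peaks were compared in Python 3.11.15 with SciPy 1.17.1. P-values measure the spread between pooled preparations. Per the study's methods, the tagged RPF replicates of a condition were joined before reverse transcription. The spread between RPF replicates therefore leaves out differences that arose in the later steps. The genes and lists were chosen with earlier results of these data known. All 10 genes were named, and in occupancy and enrichment up to 4 partners per comparison with the largest changes past the threshold. The low nuclease RNA-seq was compared with no group, since 10 genes took 81.5% to 85.0% of the counts in 3 of its libraries. It did enter the scaling and the dispersion of the fit over all 12 groups.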

Additional observations from a re-analysis of the deposited data

How the results depend on the processing

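With library size alone and all libraries, genes that were higher under TMM turned: in WT occupancy Rims1 to -0.63, Unc13b to -0.56, Erc1 to -0.11 and Ppfia3 to -0.01, in FMR1 KO occupancy Rims2 to -0.53, Unc13b to -0.52 and Erc1 to -0.08, in fraction 5/6 against RNA Ppfia3 to -0.30 in both genotypes and Erc1 to -0.53 in FMR1 KO, and between preparations Erc1 to -0.05 in WT and Erc2 to -0.03 in FMR1 KO. Of the 10 genes called, that setting gave 5 in WT fraction 5/6 against RNA, 2 in FMR1 KO enrichment, and 2 in WT and 1 in FMR1 KO between preparations. DESeq2 and a fit over all 12 groups each gave 5 in WT fraction 5/6 against RNA, where 9597 of 16142 and 9077 of 16473 genes passed. The fit over all 12 groups gave 1 in WT enrichment, where 232 of 16473 did.

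Leaving out each library in turn gave 6 to 8 genes in WT and 5 to 8 in FMR1 KO occupancy, 2 to 7 and 6 to 8 in fraction 5/6 against RNA, 0 to 6 and 4 to 6 in enrichment, 4 and 3 to 5 in low nuclease enrichment, and 3 to 7 and 0 to 5 between preparations, and 0 in every genotype comparison. Of the 13013 to 16436 genes tested, 9247 to 10668 passed in WT and 9249 to 10963 in FMR1 KO occupancy. In fraction 5/6 against RNA 7144 to 9820 and 8530 to 10121 did, and in enrichment 0 to 1268 and 549 to 1387. In low nuclease enrichment 990 to 2537 and 336 to 2069 passed, and between preparations 2428 to 5912 and 488 to 4507. The highest values in WT enrichment and WT fraction 5/6 against RNA came without the library labelled WT fraction 5/6 replicate 3. Low nuclease FMR1 KO enrichment gave 3 without fraction 5/6 replicate 1 or 3. Between preparations WT gave 3 without replicate 1 of either pellet, and FMR1 KO gave 0 without standard replicate 1 or low nuclease replicate 2 or 3, 1 without standard replicate 3 and 5 without low nuclease replicate 1. The causes were not tested.

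Recurrent sites within 12 nt were 15 in the WT pellet, 14 in the FMR1 KO pellet, 3 in both and 1 in each fraction 5/6. Within 3 nt there were 2 in the FMR1 KO pellet and 0 in both, and among peaks at or above the library's median height 2, 1 and 0. Matching over 2 libraries in place of 3 gave 14 to 26, 8 to 27, 1 to 2 in both pellets, and 1 to 6 and 1 to 9 in fraction 5/6. Leaving out 1 library, or the same replicate number from both groups, gave differences in peaks of -33.2 to 36.3 between the genotypes, 41.0 to 104.5 in WT and 63.5 to 144.5 in FMR1 KO.

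Same-numbered libraries of 19 pairs of groups correlated at -0.115 to 0.329, in no pair with all 3 over 0.1, and in 1 pair every library correlated best with its own number, so numbers were not taken as pairs. With the replicate block the genes called were 7 in each occupancy, 4 in WT (3 higher and Bsn lower) and 7 in FMR1 KO (3 higher and 4 lower, without Erc1) in fraction 5/6 against RNA, 0 in WT and 4 in FMR1 KO enrichment, 5 and 7 in low nuclease enrichment, and 4 in WT and 0 in FMR1 KO between preparations. Over all genes 9827 and 9960 passed in WT and FMR1 KO occupancy, and 7868 and 9230 in fraction 5/6 against RNA. In enrichment 0 and 854 did, in low nuclease enrichment 4998 and 4675, and between preparations 4988 and 779.

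Fold changes of Bsn and Unc13b in fraction 5/6 rest on as few as 107 and 98 counts. Over single genes, 485 values kept direction and call, 91 lost the call and 12 turned.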

Other observations

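The low nuclease RNA-seq libraries differed among themselves for these genes, and the order depended on the scaling. As CPM, Bsn was at 743, 114 and 985 in WT and at 843, 63.5 and 49.9 in FMR1 KO, and Pclo at 259, 99.2 and 424 and at 435, 79.0 and 103. In WT replicate 2 and FMR1 KO replicates 2 and 3, where 10 genes took most of the counts, the CPM of all 10 scaffold genes and the sums of all 6 marker lists were lower than in the other 3 libraries. The neuron markers were at 745, 537 and 550 CPM against 4270 to 5165 CPM, the astrocyte markers at 207, 149 and 104 against 873 to 1405, and the microglia markers at 22.2, 16.5 and 14.3 against 166 to 186. With TMM scaling Pclo was higher in those 3 libraries, at 426, 409.5 and 555 against 159, 253 and 282 CPM, and so was Rims1, at 198, 203 and 218 against 127 to 133 CPM. Rims2, Unc13b and Erc2 were higher there as well. Bsn overlapped, at 488, 329.5 and 269 against 456, 586 and 547 CPM, as did Unc13a, Erc1, Ppfia2 and Ppfia3. The part of the 10 dominant genes in these values was not tested.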
